A study of Mus musculus with 4 samples.

Results

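Cell division and DNA replication genes were followed on 4 expression arrays of mouse regulatory T (Treg) cells, with and without an intact Foxp3 gene. The set was defined by name: all probe sets whose platform symbol was exactly that of 1 of 40 genes, 18 of S phase and 22 of mitosis. Of these, 39 genes were matched, by 89 probe sets, out of 18193 genes with probe sets of a single symbol. Ccnb1 (cyclin B1) was not matched and is not analysed here. Each gene is represented by its brightest probe set over the 4 arrays, and values are log2 intensities, given for each gene as deleted replicates 1 and 2 against wild-type replicates 1 and 2. A gene was tested where its mean over the 4 arrays was at least 4, since values below it lie near the floor of the arrays. The mean reached that level for 38 members, 17 of S phase and 21 of mitosis, among 8629 genes tested. The member left untested was Cdc45, a subunit of the active replicative helicase, at 2.84 and 3.94 (deleted) and 4.29 and 3.97 (wild type).

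A dividing T cell first copies its DNA and then separates the copies. In S phase the MCM helicase opens the double helix, PCNA clamps the polymerases to it, and ribonucleotide reductase, thymidylate synthase and thymidine kinase supply nucleotides. In mitosis, cyclin-dependent kinase 1, the Aurora and Polo kinases, spindle motors, centromere proteins and the anaphase-promoting complex carry out and time the separation. Transcripts of both phases are kept low in resting lymphocytes and rise when cells enter the cycle, the first set largely through E2F factors and the second through the DREAM and MuvB complexes at CHR promoter elements.

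The deleted group (2 arrays) held cells with a loxP-flanked Foxp3 locus that Cre could excise, and the wild-type group (2 arrays) held cells with an unaltered Foxp3 gene. Both groups had been treated with the Cre construct HR-MMPCreGFP, were CD4+ YFP+ Ly5.2+ T cells, with YFP reporting exposure to Cre, and were isolated 6 weeks after adoptive transfer. The comparison asks what mature Treg cells transcribe once Foxp3 is ablated. Strain, age and number of animals are not stated in the labels, nor is it stated whether replicates came from separate animals, so p-values reflect variation among these 4 samples alone, and that variation may be technical.

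Some properties of the arrays differed between groups or set deleted replicate 1 apart, and touch every result below. Foxp3 read 8.77 and 8.75 (deleted) and 11.40 and 11.23 (wild type), lower in deleted cells by a mean of 2.55, and the 2 deleted arrays were alike in the targeted gene. Where its probes lie relative to the excised part is not known here, so this check is limited. All 5 Treg markers measured were lower in both deleted arrays, with a summed linear intensity of 2731 and 4674 against 17589 and 18828. The deleted arrays differed from each other in Ikzf2 (Helios), at 10.10 and 11.69, and in Il2ra (CD25), at 5.92 and 4.26 in the opposite order. The 3′ control probe set of Gapdh exceeded its 5′ one by 5.89 and 4.17 (log2) in deleted replicates 1 and 2 against 7.24 and 7.08 in the wild-type arrays, and the same measure for Actb was 4.91 and 4.47 against 7.26 and 6.60. All 7 measured markers of CD4+ T cells passed the filter. Their summed linear intensity was 15868 and 15158 in the deleted and 12045 and 11756 in the wild-type arrays. Cd8a, Cd8b1 and Ncr1, markers of CD8+ T and natural killer cells, lay below 4 on all 4 arrays. Of 7 myeloid markers, 5 were highest in deleted replicate 1, among them Lyz2 (lysozyme) at 9.69 against 6.30, 5.65 and 7.24 on deleted replicate 2 and the wild-type arrays, while Itgam and Cd14 lay below 4 on every array. The summed linear intensity of the myeloid markers was 2262 and 705 in the deleted and 745 and 605 in the wild-type arrays. That of 6 measured B cell markers was 107 and 141 against 184 and 136, with Cd79a, Pax5 and Blk below 4 throughout. The 2 B cell markers that passed the filter went opposite ways. Cd79b read 4.04 and 4.94 (deleted) against 6.58 and 6.49 (wild type), and Cd22 read 5.86 and 6.33 against 5.70 and 3.76. Of 2 measured erythroid markers, Hba-a1 lay below 4 on every array, and their sum ranged from 19.1 to 22.5. The part of these in the results below was not tested.

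**Figure D1:**
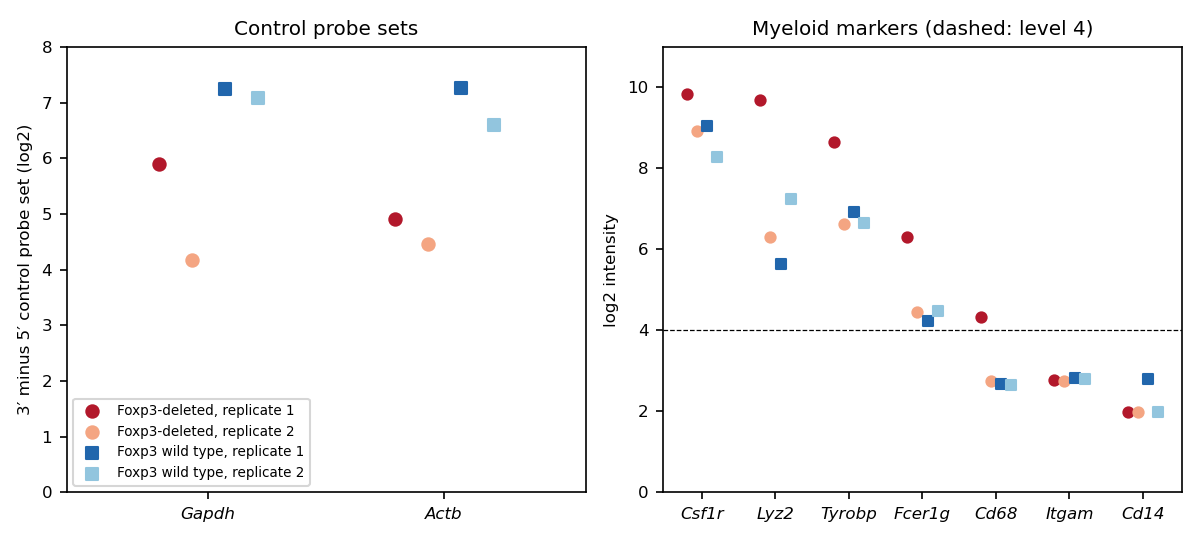
Left, log2 difference between the 3′ and 5′ control probe sets of Gapdh and Actb; right, log2 intensity of 7 myeloid markers, with 1 symbol per array (circles, Foxp3-deleted; squares, wild type). The wild-type arrays have the larger 3′ excess (6.60 to 7.26), and deleted replicate 1 has the highest Lyz2 (9.69).

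Between the groups, no member passed the test. Of 38 tested members, 33 had a lower mean in deleted cells, against 51.9% of all genes tested, with a median log2 difference of -0.37 against -0.02 for all genes. Limma called 0 members at an adjusted p under 0.05, as it called 0% of all genes tested, and adjusted p for the members lay between 0.373 and 0.993. At an unadjusted p under 0.05, 1 member passed, Ccne2, among 859 genes in all. In bulk RNA, fewer cycling cells and less of these transcripts per cell cannot be told apart. The direction rested on deleted replicate 1: without it 29 of the 38 members were higher and 9 lower, with a median of 0.43, whereas without deleted replicate 2 the median was -1.12 and 36 were lower.

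The widest differences among these genes lay between the 2 deleted arrays. Of the 38 tested members, 35 read lower in deleted replicate 1 than in deleted replicate 2, against 44.7% of all genes tested, and 28 were at least 2-fold lower, against 5.57% of all genes tested. The median distance was 1.54 (2.90-fold), where the median over all genes was -0.05. Between the wild-type arrays the members differed by 0.41 in size at the median, close to 0.43 for all genes. Deleted replicate 1 was the lowest of the 4 arrays for 32 members, against 21.9% of all genes tested, and deleted replicate 2 the highest for 23, against 23.6% of all genes. Both wild-type arrays lay between the 2 deleted arrays for 21 members, against 14.3% of all genes. There is 1 array on each side of this comparison, so it has no test, and the group means hide it.

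**Figure D2:**
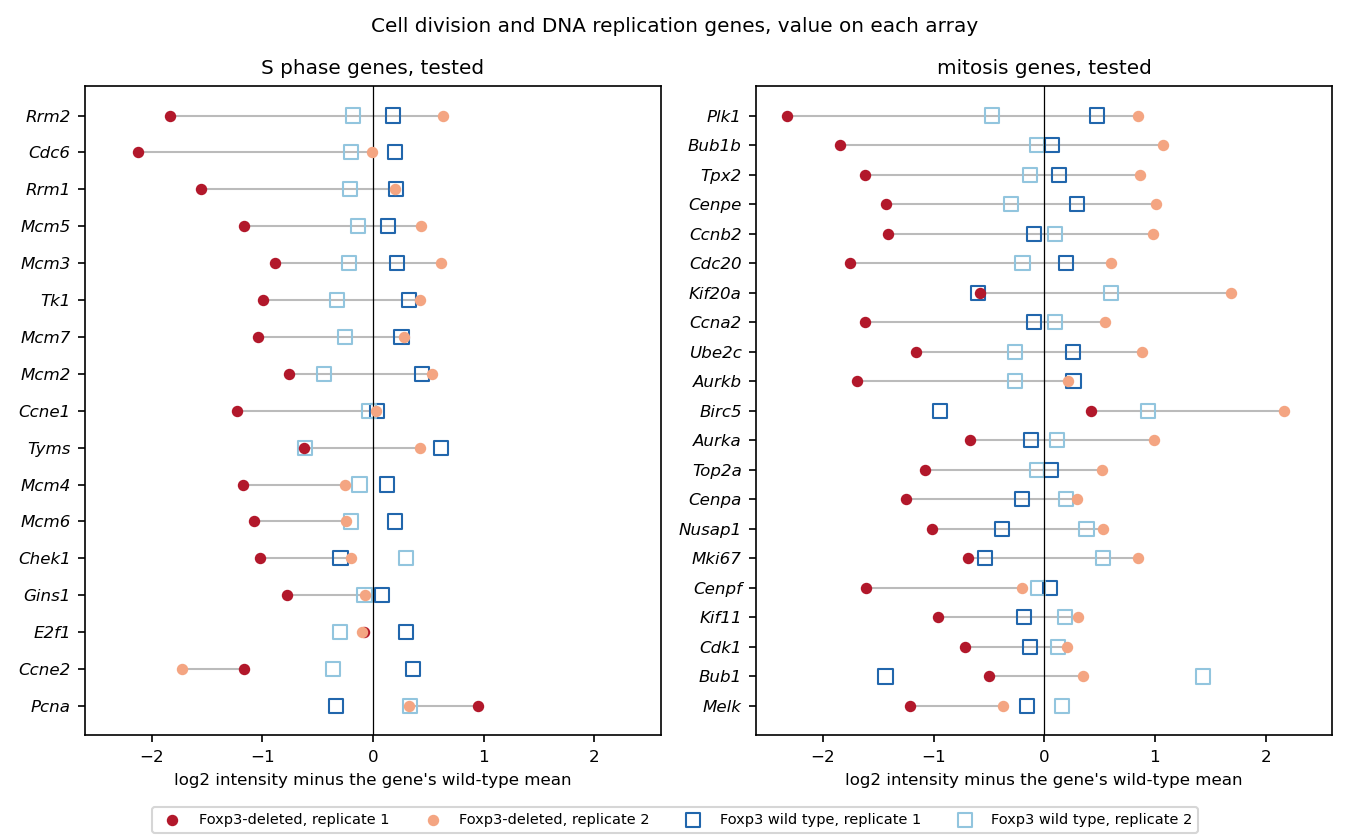
Log2 intensity of each tested S phase (left) and mitosis gene (right) on the 4 arrays, minus the mean of the 2 wild-type arrays for that gene; the grey line joins the 2 deleted arrays. Deleted replicate 1 is lowest for 32 of the 38 genes, and for 21 the wild-type squares lie between the deleted circles.

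Mitosis genes were farther apart between the deleted arrays than S phase genes. All 21 tested mitosis genes were lower in deleted replicate 1 than in replicate 2, by 0.84 to 3.17 with a median of 1.74 (3.34-fold), and 18 were at least 2-fold lower. For 17 S phase genes the median was 1.25 (2.37-fold), 14 were lower and 10 at least 2-fold lower. The larger median for mitosis genes held under each filter, probe set and scaling alternative that was run. Set against the wild-type mean, deleted replicate 1 was lower by similar amounts, with medians of -1.22 for mitosis and -1.04 for S phase genes. Deleted replicate 2 was above the wild-type mean for 19 of 21 mitosis genes (median 0.61) and for 10 of 17 S phase genes (median 0.19).

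**Figure D3:**
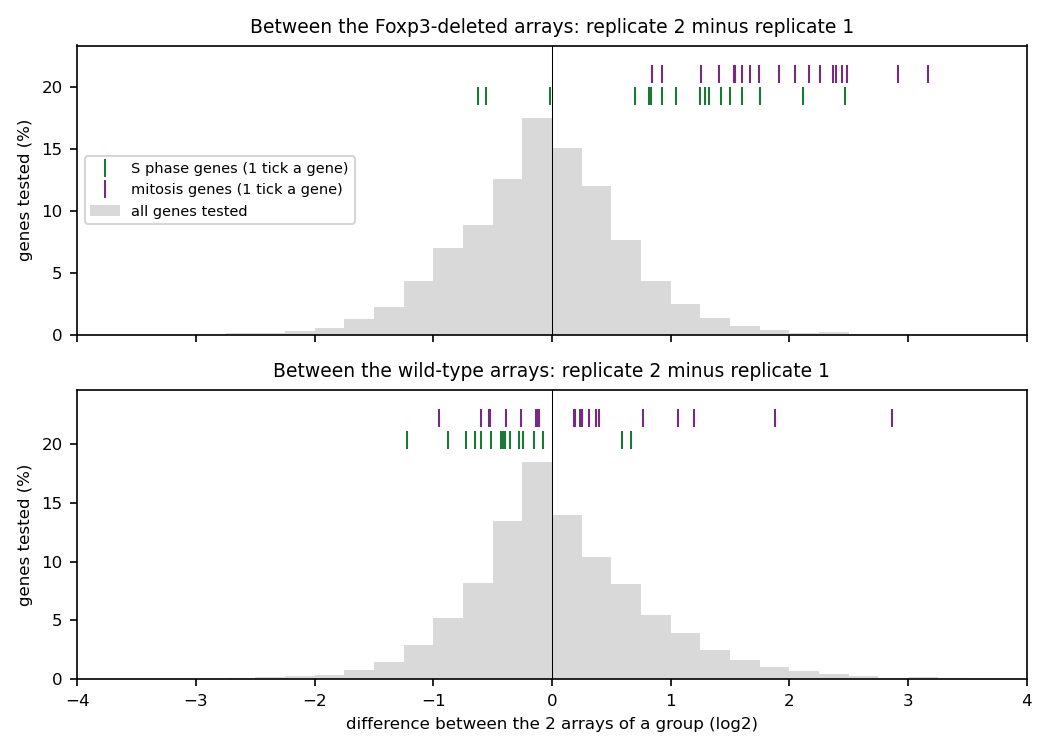
Differences between the arrays of a group (log2, replicate 2 minus replicate 1) for all 8629 genes tested (grey bars, percent of genes per bin of 0.25) and for the members (ticks). In deleted cells (top) all 21 mitosis ticks lie above 0.84; in wild-type cells (bottom) most S phase ticks lie below 0 and mitosis ticks on both sides.

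Since most members shared this order, their promoters were searched for E2F and CHR elements and for the CCAAT box that often accompanies the latter. RefSeq windows of 300 bases (250 before and 50 after the start of a gene, GRCm38.p6) matched 33 of the 40 members, in 34 windows, since Mcm7 has 2. Both strands were searched for CHR (TTTGAA or TTTAAA, the latter its own reverse complement), CCAAT, and E2F (TTTCCCGC, TTTGGCGC, TTTCGCGC or TTTGCCGC), and E2F matches on opposite strands may overlap. A CHR match was in 15 of 18 mitosis windows and 6 of 16 S phase windows, against 27.6% of 32851 windows of all genes. CCAAT was in 15 of 18 and 10 of 16, against 37.4%. E2F was in 1 of 18 and 5 of 16, against 2.26%. The mitosis windows include that of Ccnb1, which has no expression value here. A match is a description of letters and not evidence of binding.

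The 150 bases before the start are shown for 4 mitosis genes, 2 S phase genes that followed the common order and Pcna, which did not, on the strand of the gene and with CHR, CCAAT and E2F matches in capitals. Plk1 lies at chr7:122159285-122159434 (+ strand), Cdc20 at chr4:118437344-118437493 (- strand), Top2a at chr11:99024190-99024339 (- strand), Cdk1 at chr10:69352913-69353062 (- strand), Cdc6 at chr11:98908001-98908150 (+ strand), Mcm6 at chr1:128359706-128359855 (- strand) and Pcna at chr2:132253181-132253330 (- strand).
Plk1: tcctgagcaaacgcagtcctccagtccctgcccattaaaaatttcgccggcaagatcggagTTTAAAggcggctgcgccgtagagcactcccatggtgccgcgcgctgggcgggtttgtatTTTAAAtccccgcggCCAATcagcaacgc
Cdc20: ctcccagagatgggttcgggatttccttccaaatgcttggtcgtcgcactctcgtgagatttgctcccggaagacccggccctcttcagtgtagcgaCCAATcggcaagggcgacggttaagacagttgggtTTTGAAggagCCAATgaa
Top2a: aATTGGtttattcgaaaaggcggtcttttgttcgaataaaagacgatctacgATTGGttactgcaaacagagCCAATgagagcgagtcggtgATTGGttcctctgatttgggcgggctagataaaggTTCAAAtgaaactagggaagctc
Cdk1: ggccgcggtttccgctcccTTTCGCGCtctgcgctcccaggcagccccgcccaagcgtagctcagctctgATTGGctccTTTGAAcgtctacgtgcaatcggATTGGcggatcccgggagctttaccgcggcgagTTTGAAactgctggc
Cdc6: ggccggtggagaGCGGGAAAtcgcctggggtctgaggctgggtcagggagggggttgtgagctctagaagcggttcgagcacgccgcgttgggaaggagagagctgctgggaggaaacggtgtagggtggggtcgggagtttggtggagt
Mcm6: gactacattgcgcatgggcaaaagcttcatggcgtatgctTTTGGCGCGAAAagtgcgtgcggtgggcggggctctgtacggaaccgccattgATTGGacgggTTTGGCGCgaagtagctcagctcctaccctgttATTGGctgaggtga
Pcna: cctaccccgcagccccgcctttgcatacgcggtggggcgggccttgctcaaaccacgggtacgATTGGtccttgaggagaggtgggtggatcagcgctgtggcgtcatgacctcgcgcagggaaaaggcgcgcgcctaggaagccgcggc

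The Plk1, Cdc20, Top2a and Cdk1 stretches each hold at least 1 CHR match and CCAAT on one strand or the other, and Cdk1 holds an E2F match as well. Cdc6 has 1 E2F match and no CCAAT, and Mcm6 has 3 E2F matches, of which 2 overlap. Pcna has a CCAAT match only. The 14 tested mitosis genes with a CHR match were lower in deleted replicate 1 than in replicate 2 by a median of 1.70, and the 3 without one, Bub1, Melk and Nusap1, by 0.85, 0.84 and 1.54. Since 3 genes are few and the range with a match began at 0.93 (Cdk1), this is given as a description. Ccna2, Tpx2, Kif20a and Aurkb had no window, so the split leaves them out, and they were lower by 2.17, 2.48, 2.26 and 1.91. Of the S phase genes, Ccne2, Gins1 and Mcm4 had no window either. The other splits were narrower or rested on 1 gene. Medians with and without CCAAT were 1.63 and 1.54 in mitosis genes and 1.41 and 1.15 in S phase genes. In S phase genes they were 1.42 and 1.05 for CHR, and 1.499 and 1.248 for E2F. The 1 mitosis gene with an E2F match, Cdk1, lay at 0.93, against a median of 1.63 without one. The median was larger with a match for each element in S phase genes, and for CHR and CCAAT in mitosis genes. None of these splits was tested.

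Among the kinases and checkpoint proteins of mitosis, the distance between the deleted arrays ranged widely, from 0.84 for Melk to 3.17 for Plk1. Plk1, the Polo kinase that matures centrosomes and spindle, read 4.62 and 7.79 in deleted replicates 1 and 2 and 7.42 and 6.47 in wild-type replicates 1 and 2. The 2 deleted arrays thus differed 8.99-fold, with both wild-type arrays between them, and this was the largest distance in that direction of all 8629 genes tested. Its group means were 6.20 ± 2.24 and 6.94 ± 0.67 (SD, n = 2 each), a difference of -0.74 (SE 1.07). Bub1b, which encodes the spindle checkpoint protein BUBR1, read 5.95 and 8.86 against 7.86 and 7.72, or 7.56-fold between the deleted arrays and the fourth largest distance (rank 4). Its second probe set above the filter was also farther apart in deleted cells (1.81), but its group difference had the opposite sign (0.62 against -0.39). Bub1, the partner kinase of that checkpoint, went another way: it read 5.28 and 6.12 against 4.34 and 7.21, so that its widest distance was between the wild-type arrays.

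Aurkb, the kinase of the chromosomal passenger complex, read 4.13 and 6.04 (deleted) and 6.09 and 5.56 (wild type). Deleted replicate 2 lay between the wild-type arrays here, and only deleted replicate 1 was below them. Aurka, the kinase of the spindle poles, read 3.91 and 5.58 against 4.47 and 4.70, and its group means differed by 0.16 (SE 0.60). Birc5 (survivin, a further subunit of the passenger complex) had the largest higher mean of the members, 7.67 ± 1.23 against 6.37 ± 1.33, a difference of 1.30 (SE 0.85, adjusted p = 0.711 in limma). It read 6.80 and 8.54 (deleted) and 5.44 and 7.31 (wild type), so the groups overlapped, and the distance within each group was larger than the distance between them.

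Cyclins A2 and B2 and the kinase they activate were lower in deleted replicate 1 than in replicate 2. Ccna2 (cyclin A2) read 7.60 and 9.77 against 9.13 and 9.32, and Ccnb2 (cyclin B2) read 6.09 and 8.48 against 7.41 and 7.60. In both, the wild-type arrays agreed to 0.19 while the deleted arrays differed 4.50-fold and 5.26-fold. Cdk1, that kinase, was closer together at 6.02 and 6.95 against 6.62 and 6.87. Melk, a kinase of proliferating cells, read 5.62 and 6.46 against 6.68 and 6.99. Its deleted arrays both lay below both wild-type arrays, at a difference of -0.80 (SE 0.43). That order held for 2 of 21 tested mitosis genes, against 22.0% of all genes tested.

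Cdc20 and Ube2c encode an activator and the ubiquitin-conjugating enzyme of the anaphase-promoting complex, which ends mitosis. Cdc20 read 9.35 and 11.72 (deleted) and 11.31 and 10.92 (wild type), and its 3 probe sets above the filter were all lower in deleted replicate 1, by 0.70 to 2.36. Ube2c read 8.08 and 10.12 against 9.50 and 8.98, a 4.13-fold distance between the deleted arrays. For both genes the wild-type arrays lay between.

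Genes of the spindle and centromere were also lower in deleted replicate 1 than in replicate 2. Their wild-type arrays were close together for some, such as Cenpf, and farther apart for others, such as Kif20a. Tpx2, which helps to nucleate the spindle, read 5.36 and 7.85 against 7.11 and 6.85, and the centromere motor gene Cenpe read 5.56 and 8.0 against 7.29 and 6.69. Cenpf, a protein of the kinetochore, read 5.04 and 6.45 against 6.71 and 6.60, lower in both deleted arrays by a mean of 0.91 (SE 0.55). Cenpa, the centromeric histone, was 2.92-fold and the spindle motor Kif11 2.39-fold lower in deleted replicate 1 than in replicate 2. The 3 Kif11 probe sets above the filter gave group differences from -0.33 to 1.04 but were all lower in deleted replicate 1. Nusap1, a microtubule-binding protein, read 6.37 and 7.91 against 7.0 and 7.76. Kif20a, a motor of cytokinesis, read 5.21 and 7.47 against 5.19 and 6.39, so that wild-type replicate 1 was as low as deleted replicate 1. The other members more than 1 lower in wild-type replicate 1 than in replicate 2 were Bub1, Birc5 and Mki67. These 4 of 38 compare with 10.8% of all genes tested.

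Mki67, the proliferation marker Ki-67, read 11.01 and 12.55 in deleted and 11.18 and 12.24 in wild-type cells. Here each group had a low and a high array, and the means differed by 0.08 (SE 0.61). Top2a, the topoisomerase that untangles sister DNA, read 9.24 and 10.84 against 10.38 and 10.25. Its wild-type arrays agreed to 0.13, while the deleted arrays differed 3.03-fold.

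The MCM helicase subunits were lower in deleted replicate 1 throughout. Mcm2 read 7.37 and 8.66 against 8.57 and 7.69, and Mcm5 read 11.83 and 13.43 against 13.14 and 12.86. Mcm3 and Mcm7 differed 2.83-fold and 2.50-fold between the deleted arrays. Mcm4 read 9.89 and 10.81 against 11.19 and 10.94, and Mcm6 read 10.04 and 10.87 against 11.31 and 10.92. These 2 subunits were lower in both deleted arrays, by means of 0.71 (SE 0.39) and 0.66 (SE 0.38). Their second probe sets above the filter gave group differences of 0.23 and 0.28, opposite in sign, and deleted arrays only 0.37 and 0.29 apart. The 4 Mcm3 probe sets (-1.01 to 0.19) and the 2 Mcm2 probe sets (-0.11 and 0.13) also differed in sign between groups, but each was lower in deleted replicate 1 than in replicate 2.

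The largest distances among S phase genes were those of Rrm2, Cdc6 and Rrm1, and the other genes of nucleotide supply, origins and the fork were closer together. Rrm2, the regulated subunit of ribonucleotide reductase, read 10.02 and 12.49 against 12.03 and 11.67, a 5.53-fold distance between the deleted arrays. Rrm1, its large subunit, read 7.37 and 9.13 against 9.14 and 8.72. Cdc6, which loads MCM onto origins, read 4.89 and 7.01 against 7.22 and 6.82, a mean lower by 1.07 (SE 0.74). For Rrm1 and Cdc6, deleted replicate 2 lay within the wild-type range, and deleted replicate 1 was the lowest array, 3.37-fold and 4.33-fold below deleted replicate 2. Tk1 (thymidine kinase) read 5.78 and 7.20 against 7.10 and 6.45, and Tyms (thymidylate synthase), near the floor, read 3.70 and 4.75 against 4.94 and 3.71. Gins1, a subunit of the active helicase, read 5.66 and 6.36 against 6.51 and 6.36, and Chek1, the kinase that guards stalled forks, read 5.77 and 6.59 against 6.5 and 7.09.

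In S phase, 3 genes were not lower in deleted replicate 1 than in replicate 2 by their brightest probe set. Pcna, the polymerase clamp, read 11.39 and 10.77 (deleted) and 10.11 and 10.78 (wild type), with deleted replicate 1 the highest of all arrays. Its mean was higher in deleted cells by 0.63 (SE 0.37, adjusted p = 0.689 in limma), the only S phase gene with a higher mean. Ccne2 (cyclin E2) read 5.52 and 4.96 against 7.05 and 6.32, a difference of -1.44 (SE 0.43, adjusted p = 0.373 in limma). It was the only member at least 2-fold apart with no overlap between the groups, where 4.93% of all genes tested were lower and 5.57% higher by that measure. Ccne1 (cyclin E1), which acts on the same kinase, followed the common order instead, at 7.97 and 9.22 against 9.24 and 9.16. E2f1, the E2F transcription factor, read 5.02 and 5.0 against 5.40 and 4.80, so its deleted arrays were alike. A further E2f1 probe set above the filter read 0.89 lower in deleted replicate 1 than in replicate 2.

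In all, 6 members were lower in both deleted arrays than in both wild-type arrays: Ccne2, Mcm4, Mcm6, Gins1, Cenpf and Melk. That is 6 of 38, against 22.0% of all genes tested, and 0 members were higher in both, against 17.7%. For 32 members the groups overlapped. Both shares lay below those of all genes.

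Between the wild-type arrays most S phase genes differed in 1 direction, and mitosis genes in both. Of 17 S phase genes, 15 were higher in wild-type replicate 1 than in replicate 2, against 51.4% of all genes tested, with a median of 0.40, and 1 of them, Tyms, at least 2-fold, against 5.98% of all genes. Of 21 mitosis genes, 9 were higher and 12 lower, with a median of -0.19. On the separate list of 40 tested replication genes, 22 were higher and 18 lower, with a median of 0.11, a smaller median than that of the S phase members. The sign of both medians held under each filter, probe set and scaling alternative that was run.

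The order of the deleted arrays was much the same over probe sets. Of 64 member probe sets above the filter, 60 were lower in deleted replicate 1 than in replicate 2, with a median of 1.43, and 47 at least 2-fold. Of 19 members with more than 1 such probe set, 17 had all of them lower in deleted replicate 1, the exceptions being E2f1 and Chek1. The sign of the group difference was less steady, since 8 of the 19 had probe sets of both signs: Mcm2, Mcm3, Mcm4, Mcm6, Cdc20, Bub1b, Cenpe and Kif11. For 12 of the 38 tested members the probe set shown has the suffix _x_at or _s_at, by which the manufacturer marks sets whose probes may match other transcripts. With such sets left out, 27 of 37 members were at least 2-fold lower in deleted replicate 1 than in replicate 2, and with the mean over all probe sets of a gene 19 of 34 were.

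Other genes of the same pathways, on lists also chosen with earlier results of these data known, gave the same order. Of 40 tested genes on a separate list of replication genes, 33 were lower in deleted replicate 1 than in replicate 2 and 16 at least 2-fold, with a median of 0.81. Of 56 tested genes on a separate mitosis list, 54 were lower and 35 at least 2-fold, with a median of 1.23. Over all genes tested, 44.7% were lower and 5.57% at least 2-fold lower, with a median of -0.05. Between groups 0 genes of either list passed in limma, as did 0% of all genes tested. A lower mean was found for 28 and 38 genes, against 51.9% of all genes tested. The largest group differences on the replication list were those of Rfc3, a clamp loader subunit (1.16), Fen1, the flap endonuclease (-1.01), and the histone mRNA-binding protein gene Slbp (0.98). On the mitosis list they were those of Trip13, an ATPase of the spindle checkpoint (-1.70), the cytokinesis kinase gene Cit (1.42) and the condensin subunit gene Ncaph (-1.28). Trip13 read 7.88 and 9.32 against 10.63 and 9.97, lower in both deleted arrays. Cit read 5.16 and 7.89 against 5.05 and 5.16, so that its difference was that of deleted replicate 2 alone. Slbp read 9.55 and 9.34 against 7.41 and 9.53, and only wild-type replicate 1 stood apart. Ncaph read 8.18 and 10.25 against 10.89 and 10.10, with deleted replicate 2 between the wild-type arrays.

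Genes that govern entry from G1 were closer together between the deleted arrays. Of 14 tested G1 genes, 9 were lower in deleted replicate 1 than in replicate 2, against 44.7% of all genes tested. At least 2-fold lower were 0 genes, against 5.57% of all genes tested. For so few genes, a count of 0 lies near that share. The median distance was 0.07, where that over all genes was -0.05. Myc read 7.41 and 6.72 (deleted) and 8.44 and 7.26 (wild type), Cdk4 8.51 and 8.80 against 7.67 and 8.20, and Rbl2, the pocket protein p130, 7.52 and 7.62 against 5.88 and 7.64. In limma 0 of the 14 passed at an adjusted p under 0.05, as did 0% of all genes tested. At an unadjusted p under 0.05, 0 passed, against 859 of all 8629 genes tested.

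**Figure D4:**
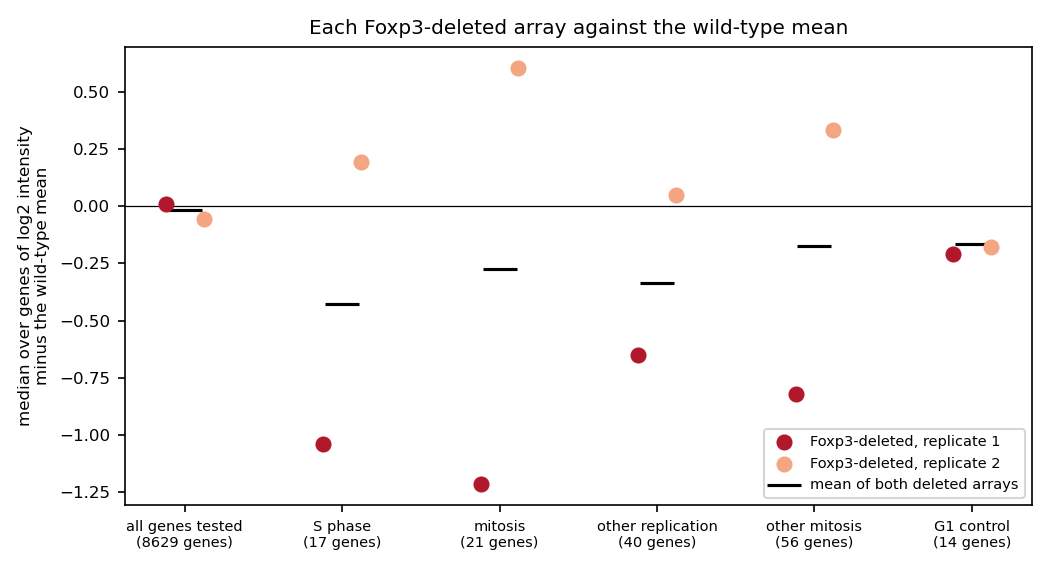
Median over the tested genes of each list of log2 intensity minus the wild-type mean, for each Foxp3-deleted array (circles) and their mean (bars). The S phase and mitosis genes lie at -1.04 and -1.22 in deleted replicate 1 and at 0.19 and 0.61 in replicate 2, whereas the 2 deleted arrays lie close to each other for all genes and for G1 genes.

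Among the 100 tested genes with the largest distance in this direction between the deleted arrays, 15 were members and 26 came from the separate replication and mitosis lists. This ranking was made after the values were seen and has no test.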

How the data were processed

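RNA of 4 samples was hybridised to single-colour arrays, 1 array each. Per the labels, the authors extracted total RNA with Qiagen RNeasy and labelled it with biotin (Ambion Message Amp II). The submitters' processing notes name GCRMA 1.1.3, and the deposited values are intensities on a linear scale. That method removes background by probe sequence, normalizes between arrays and combines the probes of a set, so dim values pile up near a floor. Its settings were not given in the sources used here.

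Values were log2-transformed without a pseudocount. Of 45101 probe sets, 34945 with 1 symbol were used; those with several (932) or none (9160) and 64 controls were left out. Groups were compared with limma 3.58.1 in R 4.3.3 (lmFit, eBayes with trend, two-sided, Benjamini-Hochberg over 8629 genes, threshold 0.05), with 2 residual degrees of freedom. The code was tested on simulated data. Only 4 arrays limit the precision. Tables and plots used Python 3.11.15, pandas 2.3.3 and matplotlib 3.10.9.

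Members and lists were chosen with earlier results of these data known. All 4 array values are given for the 6 members of each phase with the largest group difference, the 4 with the largest distance between deleted arrays, Mki67, Top2a, Pcna and Mcm2; further members were given so after their values were seen. Alternatives covered filter, probe set, scaling, floor, prior, left-out arrays and pairing.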

Additional observations from a re-analysis of the deposited data

How the results depend on the processing

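Members called stayed at 0 under every alternative run, while genes called over all genes tested went from 0 to 27 with a mean log2 of at least 6, 39 with the mean over probe sets, 46 with median scaling and 43 with quantile normalization. With 1 array left out, the median difference ranged from -1.12 to 0.43 for the members, from -1.04 to 0.19 for S phase genes and from -1.22 to 0.61 for mitosis genes. In each case the lowest value was without deleted replicate 2 and the highest, of the opposite sign to the full data, without deleted replicate 1. S phase minus mitosis was -0.15 and ranged from -0.41 to 0.18 with 1 array left out, turning to 0.18 without deleted replicate 2 and 0.03 without wild-type replicate 1, so the group difference gives these lists no order. Members at least 2-fold apart with no overlap numbered 1 and ranged from 2 to 24 with 1 array left out, where groups of 1 array overlap less easily; the count was 24 without deleted replicate 2, 5 without deleted replicate 1, 2 without wild-type replicate 1 and 6 without wild-type replicate 2. It was 0 with the stricter filter, where 242 of 6179 genes tested were lower and 302 higher by that measure. Without _x_at and _s_at probe sets, an alternative chosen after seeing the data, it was 2. For that alternative and for the left-out arrays, the share over all genes was not counted. Those counts are therefore not read as a result about the members. The median distance between the deleted arrays ranged from 0.80 to 1.33 for S phase and from 1.66 to 2.05 for mitosis genes over the filter, probe set, scaling and floor alternatives. With the replicate number as a block, the median difference was unchanged at -0.37 and 0 members were called. The labels do not say that numbers pair the samples, and same-numbered arrays deviated with a correlation of -0.30 over genes. Crossed pairing, tried for that reason, called 0 genes and 0 members.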
